A study of Rattus norvegicus with 11 samples.

Results

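The homeostatic microglia genes are 9 genes that resting microglia express and that are widely used to mark them: P2ry12, P2ry13, Tmem119, Sall1, Cx3cr1, Gpr34, Csf1r, Olfml3 and Aif1. They were chosen by name, by an exact match of the gene symbol, and each matched 1 of the 30560 genes in the expression table. RNA from the striatum was sequenced on day 3 in 11 adult male Sprague-Dawley rats, with 1 library per rat. Whole reads per gene and length-normalized levels (TPM, counts divided by gene length and scaled to the same sum in every rat) were available for each library. The study asked how the response to intracerebral hemorrhage differs with severity and after the hematoma is removed.

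The common hemorrhage group (IC, 3 rats) received 0.2 U of bacterial collagenase VII-S in 1.0 µL of saline in the right striatum. The severe hemorrhage group (IS, 3 rats) received 0.6 U in 3.0 µL. In the aspiration group (IS-HA, 3 rats) the severe dose was given and 150 µL of the hematoma was withdrawn through a catheter 6 h later. The Normal group (2 rats) had neither collagenase injection nor aspiration, and no sham or saline injection is stated for it in the sources used here, so needle passage and saline cannot be told apart from the hemorrhage in any comparison with Normal. IC and IS also differ in the injected volume as well as in the dose. Collagenase opens vessel walls enzymatically, and the model therefore adds an enzyme to the effects of blood.

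Between 6701301 and 18817645 reads per rat were assigned to genes, and 3 counts, taken as the floor of detection, correspond to 0.448 and 0.159 CPM (counts scaled by library size) at these depths. Such floors cover counting error only. All 9 genes passed the filter on low counts that left 15742 genes for testing, with 89 to 8996 counts per gene and rat. The smallest library, IS-HA replicate 2, stood apart from the other IS-HA rats. The aspiration comparison and the correlations are given with and without it, and the other IS-HA comparisons in part.

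Microglia are the resident macrophages of the brain, and in the healthy tissue they survey their surroundings with fine, mobile processes. Signaling through the colony-stimulating factor 1 receptor keeps them alive, TGF-beta and the transcription factor Sall1 maintain their identity, and receptors for nucleotides, for the neuronal chemokine fractalkine and for lysophospholipids report on the state of neighboring cells. After injury microglia reduce much of this program, while monocytes that enter from the blood share some of its genes, Csf1r, Cx3cr1 and Aif1 in particular, and largely lack others, such as Tmem119, P2ry12 and Sall1.

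Promoter windows of 300 bases around a transcription start were held in RefSeq (build GRCr8) for 5 of the 9 genes, and 4 are printed here, of P2ry13 and Gpr34 (receptors for nucleotides and lysophospholipids), Cx3cr1 (a chemokine receptor) and Olfml3 (a secreted protein), to show the regions from which genes of these different roles are transcribed. The windows lie at chr2:145622735-145623034 (P2ry13), chrX:11785787-11786086 (Gpr34), chr8:128677017-128677316 (Cx3cr1) and chr2:193935445-193935744 (Olfml3), all on the minus strand, and are written 5′ to 3′. Capitals mark a match on either strand to GAGGAA (reverse complement TTCCTC) or GGAAGT (reverse complement ACTTCC), core letters of sites for PU.1 and related ETS factors of the myeloid lineage.
P2ry13: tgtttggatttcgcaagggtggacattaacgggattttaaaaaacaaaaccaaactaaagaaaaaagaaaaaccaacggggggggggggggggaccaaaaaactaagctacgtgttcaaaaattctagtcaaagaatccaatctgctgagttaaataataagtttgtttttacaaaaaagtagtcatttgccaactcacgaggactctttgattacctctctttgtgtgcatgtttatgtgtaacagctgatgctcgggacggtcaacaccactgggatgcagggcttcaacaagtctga
Gpr34: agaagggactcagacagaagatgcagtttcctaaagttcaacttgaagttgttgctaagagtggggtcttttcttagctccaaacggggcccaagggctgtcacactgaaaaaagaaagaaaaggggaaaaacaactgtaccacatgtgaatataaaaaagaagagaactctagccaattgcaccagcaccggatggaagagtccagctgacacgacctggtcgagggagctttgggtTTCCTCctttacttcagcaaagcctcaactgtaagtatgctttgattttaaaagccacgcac
Cx3cr1: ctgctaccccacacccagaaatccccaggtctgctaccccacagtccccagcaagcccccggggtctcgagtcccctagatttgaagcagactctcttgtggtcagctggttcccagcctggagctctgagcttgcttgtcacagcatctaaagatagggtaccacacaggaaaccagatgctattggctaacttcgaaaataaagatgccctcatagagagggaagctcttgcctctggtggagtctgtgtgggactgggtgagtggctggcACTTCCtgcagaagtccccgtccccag
Olfml3: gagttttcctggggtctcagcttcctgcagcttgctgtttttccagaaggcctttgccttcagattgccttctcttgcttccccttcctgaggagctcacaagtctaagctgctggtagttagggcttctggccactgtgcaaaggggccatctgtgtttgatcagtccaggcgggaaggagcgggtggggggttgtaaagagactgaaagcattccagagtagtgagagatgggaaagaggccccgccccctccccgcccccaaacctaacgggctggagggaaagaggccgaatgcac
Gpr34 held 1 TTCCTC and Cx3cr1 held 1 ACTTCC, whereas neither string was found in the windows of P2ry13 and Olfml3. Over all 33469 promoter windows of the same length, 27.6% held GAGGAA and 22.6% held GGAAGT on either strand, so the matches are a description of these letters and not of a binding site. The fifth window, that of Csf1r, is not printed. It held 2 TTCCTC and no ACTTCC, so that GAGGAA was found in 2 and GGAAGT in 1 of the 5 windows. P2ry12, Tmem119, Sall1 and Aif1 were not matched.

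**Figure D1:**
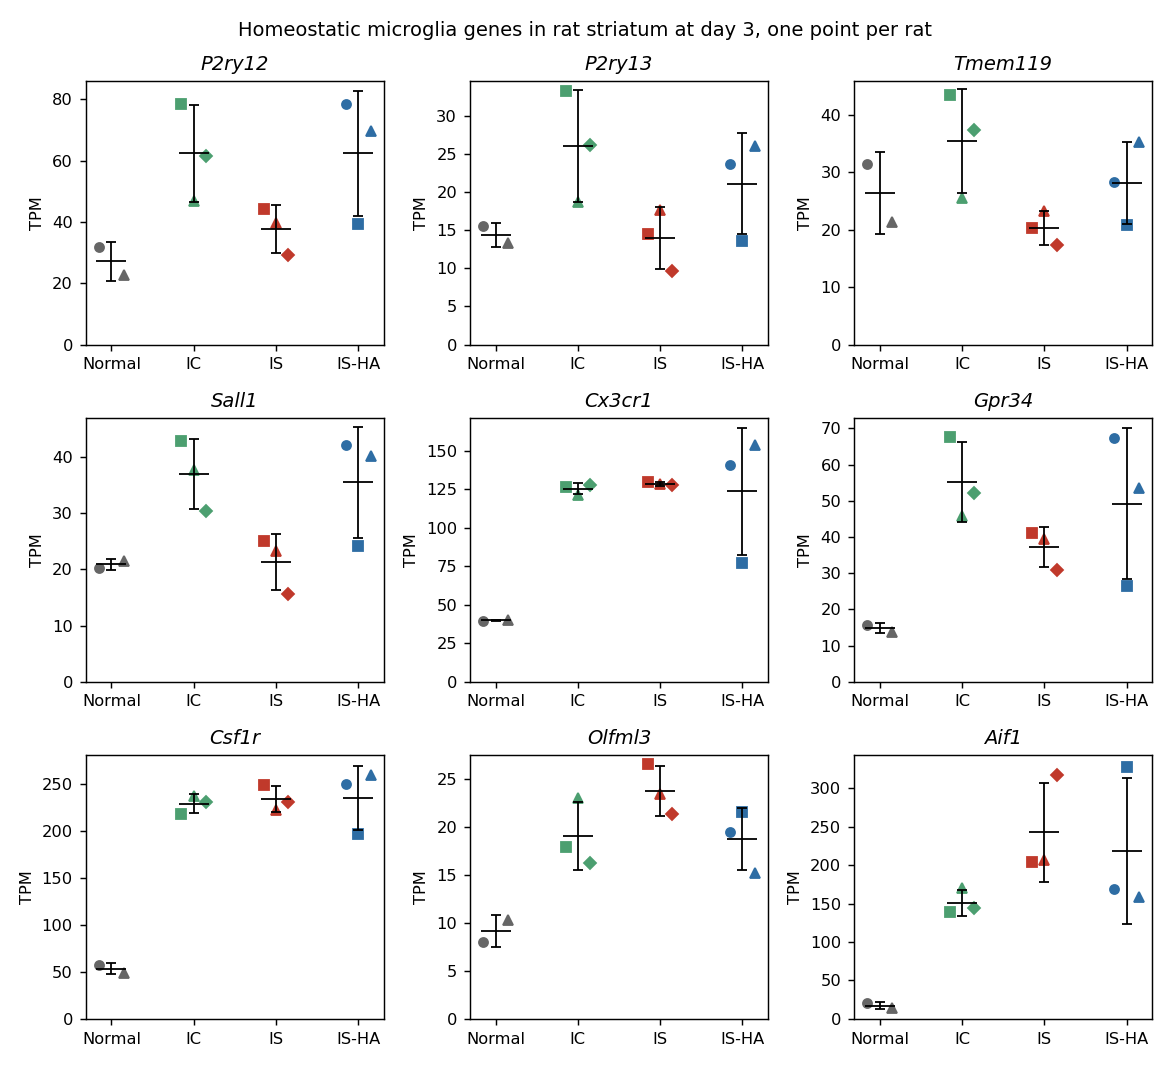
TPM (vertical axes, from 0) of the 9 homeostatic microglia genes in each rat, by group. The shape gives the replicate number (circle 1, square 2, triangle 3, diamond 4), and bars give the mean and SD of each group (2 Normal rats, 3 rats in the other groups). Csf1r, Cx3cr1, Gpr34, Olfml3 and Aif1 were above both Normal rats in all 9 hemorrhage rats, while P2ry12, P2ry13, Tmem119 and Sall1 in IS overlapped Normal.

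Hemorrhage against Normal was examined first, to see which of these genes were higher or lower on day 3 after each kind of hemorrhage. Csf1r, Cx3cr1, Gpr34, Olfml3 and Aif1 rose in all 3 hemorrhage groups, whereas P2ry12 and Sall1 rose in IC and IS-HA, and P2ry13 and Tmem119 passed the test in no group. No member of the list fell, where 4.64%, 24.2% and 12.1% of all genes tested fell in IC, IS and IS-HA. In bulk tissue, fewer cells of a type and less RNA per cell cannot be told apart, and this holds for every level given here.

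Csf1r encodes the receptor for colony-stimulating factor 1 and interleukin-34, on which microglia depend for survival. It stood at 57.2 and 49.1 TPM in the Normal rats, at 218, 237 and 231 TPM in IC, at 249, 222 and 231 TPM in IS, and at 250, 196 and 259 TPM in IS-HA. Every hemorrhage rat was far above both Normal rats, and the hemorrhage groups overlapped. The log2 fold change against Normal was 2.05 in IC (standard error 0.18, adjusted p = 1.2e-04), 2.15 in IS (standard error 0.18, adjusted p = 3.6e-05) and 2.12 in IS-HA (standard error 0.18, adjusted p = 7.0e-05), by edgeR's quasi-likelihood test, with p adjusted by the Benjamini-Hochberg method over all genes tested. This was the smallest standard error among the 9 genes.

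Cx3cr1 encodes the fractalkine receptor. Its level was 39.8 and 39.9 TPM in Normal, 126, 121 and 128 TPM in IC, 130, 128 and 128 TPM in IS, and 141, 76.9 and 154 TPM in IS-HA. IC and IS were tightly grouped at about 3 times Normal, and the lowest hemorrhage rat was IS-HA replicate 2, still above both Normal rats. The rise was 1.60 on the log2 scale in IC (standard error 0.21, adjusted p = 0.000602), 1.71 in IS (standard error 0.21, adjusted p = 0.000180) and 1.58 in IS-HA (standard error 0.21, adjusted p = 0.000457).

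P2ry12 encodes the ADP receptor that draws microglial processes to sites of damage. In Normal it stood at 31.8 and 22.7 TPM, in IC at 78.7, 46.9 and 61.7 TPM, in IS at 44.3, 39.8 and 29.1 TPM, and in IS-HA at 78.4, 39.3 and 69.6 TPM. All IC and IS-HA rats were above both Normal rats, while IS replicate 4 lay between the Normal rats. P2ry12 rose in IC (log2 fold change 1.13, standard error 0.29, adjusted p = 0.0219) and in IS-HA (1.14, standard error 0.29, adjusted p = 0.0139), and its value in IS was 0.47 (standard error 0.28, adjusted p = 0.190).

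P2ry13, a related ADP receptor that lies next to P2ry12, was lower in level than P2ry12 in every rat. Its values were 15.5 and 13.3 TPM in Normal, 33.3, 18.6 and 26.2 TPM in IC, 14.5, 17.7 and 9.67 TPM in IS, and 23.7, 13.6 and 26.0 TPM in IS-HA. IC lay above Normal, and IS and IS-HA overlapped Normal. Against Normal its log2 fold change was 0.80 in IC (standard error 0.31, adjusted p = 0.0980), -0.04 in IS (standard error 0.31, adjusted p = 0.933) and 0.50 in IS-HA (standard error 0.31, adjusted p = 0.225). In IS the sign turned to 0.10 when counts were scaled by library size alone. In IC the gene was called in 1 of 20 alternative settings, the fit of IC and Normal alone. There it stood at 0.80 (adjusted p = 0.0459, edgeR's quasi-likelihood test), with 5627 of all 15790 genes called.

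Gpr34 encodes a receptor for lysophosphatidylserine. It stood at 15.7 and 13.8 TPM in Normal, at 67.5, 45.9 and 52.2 TPM in IC, at 41.1, 39.6 and 30.8 TPM in IS, and at 67.5, 26.6 and 53.6 TPM in IS-HA. The 9 hemorrhage rats were all above Normal, the lowest being IS-HA replicate 2. Its values against Normal were 1.85 on the log2 scale in IC (standard error 0.29, adjusted p = 0.00152), 1.34 in IS (standard error 0.28, adjusted p = 0.00334) and 1.68 in IS-HA (standard error 0.29, adjusted p = 0.00198), so that Gpr34 rose in every group in which P2ry12 rose, and in IS as well.

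These 3 receptor genes lie inside other genes, and the strand setting of the counting is not given in the sources used here. P2ry12 and P2ry13 lie within Med12l, a subunit gene of the Mediator kinase module, and Gpr34 lies within Cask, a synaptic scaffold gene, on the opposite strand for P2ry13 and Gpr34. Med12l had 309 and 477 counts in the Normal rats and 11 to 165 counts in the hemorrhage rats, and Cask had 412 and 638 counts in Normal and 99 to 527 counts after hemorrhage. Sall1, Cx3cr1 and Olfml3 each overlap another gene as well, a long noncoding RNA gene, on the opposite strand for Cx3cr1. How far reads of these overlapping genes entered the counts of the members was not tested.

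Tmem119 encodes a membrane protein that separates microglia from blood-derived macrophages. Its values were 31.4 and 21.4 TPM in Normal, 43.3, 25.5 and 37.3 TPM in IC, 20.3, 23.2 and 17.3 TPM in IS, and 28.2, 20.8 and 35.2 TPM in IS-HA. Each hemorrhage group overlapped Normal, with IC toward the upper and IS toward the lower end. The log2 fold change was 0.36 in IC (standard error 0.28, adjusted p = 0.388), -0.38 in IS (standard error 0.28, adjusted p = 0.277) and 0.04 in IS-HA (standard error 0.28, adjusted p = 0.912). The Normal rats themselves differed for this gene, and leaving out Normal replicate 1 moved the IS value to 0.0016, while leaving out Normal replicate 3 moved the IS-HA value to -0.26.

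Sall1, the transcription factor that holds microglia in their resting identity, stood at 20.3 and 21.6 TPM in Normal, at 42.8, 37.7 and 30.3 TPM in IC, at 25.0, 23.2 and 15.6 TPM in IS, and at 42.2, 24.1 and 40.2 TPM in IS-HA. IC and IS-HA lay above both Normal rats, and IS lay on either side of them. Sall1 rose in IC (log2 fold change 0.76, standard error 0.20, adjusted p = 0.0276) and in IS-HA (0.72, standard error 0.20, adjusted p = 0.0218), and its value in IS was 0.03 (standard error 0.20, adjusted p = 0.914). Sall1 is long, at the 87.6th percentile of the genes tested, and after the trend of expression with gene length was removed in each rat its IS value was 0.49 (adjusted p = 0.0251), so the call in IS depends on that setting.

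Olfml3 encodes a secreted olfactomedin-like protein and was the lowest of the 9 genes in Normal. It was measured at 7.99 and 10.4 TPM in Normal, at 18.0, 23.1 and 16.3 TPM in IC, at 26.6, 23.4 and 21.4 TPM in IS, and at 19.5, 21.6 and 15.2 TPM in IS-HA. All hemorrhage rats exceeded both Normal rats. Its log2 fold change was 1.00 in IC (standard error 0.26, adjusted p = 0.0250), 1.39 in IS (standard error 0.27, adjusted p = 0.00199) and 1.05 in IS-HA (standard error 0.27, adjusted p = 0.0137).

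Aif1 encodes Iba1, an actin-binding protein of microglia and of macrophages from the blood, and showed the largest rise of the 9 genes in all 3 groups. It went from 20.6 and 14.2 TPM in Normal to 139, 171 and 144 TPM in IC, 204, 207 and 318 TPM in IS, and 169, 327 and 158 TPM in IS-HA. The highest rats were IS replicate 4 and IS-HA replicate 2, which are also the smallest libraries. Its rise on the log2 scale was 3.05 in IC (standard error 0.48, adjusted p = 0.00149), 3.82 in IS (standard error 0.50, adjusted p = 0.000238) and 3.70 in IS-HA (standard error 0.49, adjusted p = 0.000469).

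**Figure D2:**
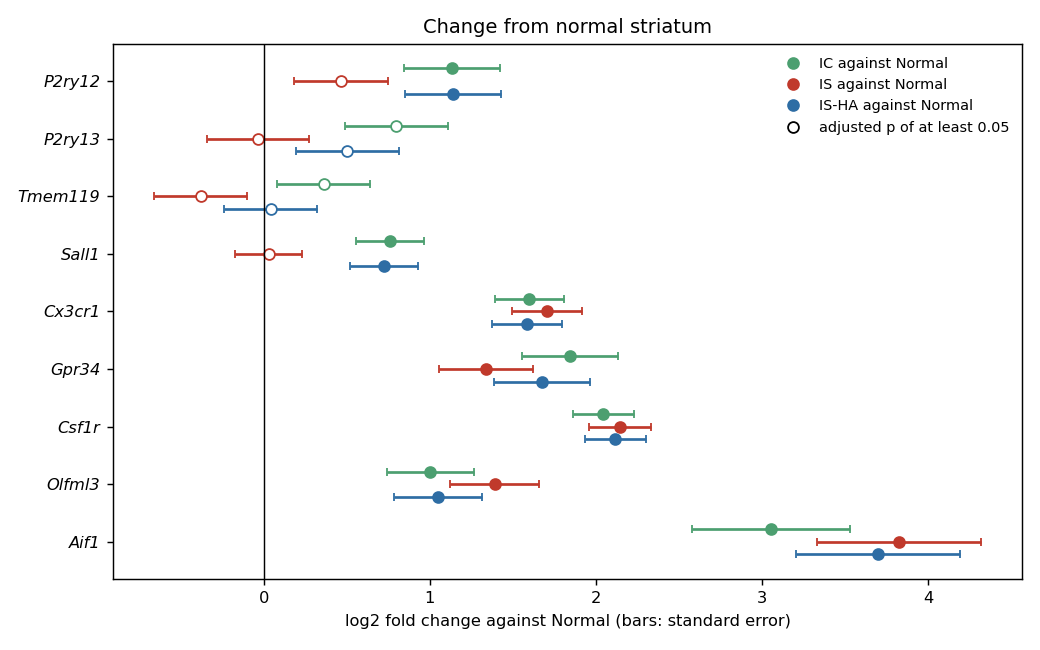
Log2 fold change against Normal (horizontal axis) of each gene in IC, IS and IS-HA, with standard errors as bars and open points where the adjusted p of edgeR's quasi-likelihood test was at least 0.05. Aif1 is farthest to the right, at 3.05 to 3.82, and the points of P2ry12, P2ry13, Tmem119 and Sall1 in IS are all open.

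In counts, 7 of the 9 genes rose in IC, against 13% of all genes tested, 5 rose in IS against 24.8%, and 7 rose in IS-HA against 19.5%. The median log2 fold change of the 9 genes was 1.13, 1.34 and 1.14 in IC, IS and IS-HA, beside 0.00, 0.02 and 0.06 over all genes. All rats of the group were above both Normal rats for 8 genes in IC (32.4% of all genes), 5 in IS (37.6%) and 7 in IS-HA (31.7%). The 3 comparisons share the 2 Normal rats. For the mean of the 3 hemorrhage groups, 7 genes rose (22.9% of all genes), with Sall1 at 0.50 (adjusted p = 0.0389) and P2ry12 at 0.91 (adjusted p = 0.0148) nearest to the threshold. The calls for Csf1r, Cx3cr1, Gpr34 and Aif1 were kept in all 20 alternative settings in each of the 3 groups, as was that for Olfml3 in IS. The calls for P2ry12, Sall1 and Olfml3 in IC and IS-HA were not. Without Normal replicate 3, which leaves 1 Normal rat, the latter 3 genes lost their calls in IC and in IS-HA. P2ry12 then stood at 0.85 in IC and 0.86 in IS-HA. Without Normal replicate 1, Sall1 and Olfml3 lost theirs in both groups. Calls over all genes fell as well when either Normal rat was left out. Leaving out any 1 of IC replicates 2, 3 and 4 left 5 genes called in IC. Over all genes, 2350, 1434 and 1689 were then called, beside 2770 with all rats. In IS-HA, 6 remained without IS-HA replicate 3, where 4627 of all genes were called, beside 4965 with all rats. The call for Sall1 over the mean of the hemorrhage groups held in 9 of 19 alternatives. Without IS-HA replicate 2, the IS-HA value against Normal was 3.09 for Aif1, 0.79 for Olfml3 and 1.30 for P2ry12. These 3 genes were still called, beside 4489 of all 15897 genes tested in that fit.

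Compared per length within a group, the order of the levels changed with hemorrhage. In Normal it was Csf1r, Cx3cr1, P2ry12, Tmem119, Sall1, Aif1, Gpr34, P2ry13 and Olfml3, with mean TPM from 53.1 ± 5.76 (SD, n = 2) for Csf1r to 9.18 ± 1.68 (SD, n = 2) for Olfml3. Neighbors from P2ry12 to P2ry13 overlapped between rats in that order. Aif1 moved from the sixth place to the second in IC (151 ± 16.9 TPM, SD, n = 3) and to the first in IS (243 ± 64.7 TPM, SD, n = 3), where it overlapped with Csf1r (234 ± 13.5 TPM, SD, n = 3). Tmem119 moved from the fourth place to the seventh in IC (35.4 ± 9.09 TPM, SD, n = 3) and the eighth in IS (20.3 ± 2.97 TPM, SD, n = 3), overlapping its neighbors in both. The summed TPM of the 9 genes was 206 to 240 in Normal, 727 to 767 in IC, 724 to 800 in IS and 746 to 819 in IS-HA, and the hemorrhage groups overlapped in this sum.

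Severity was compared next, as IS against IC. The rats of IS stood below every IC rat for P2ry12, Sall1 and Gpr34, and above every IC rat for Olfml3 and Aif1, in CPM scaled by TMM, edgeR's normalization. In TPM, P2ry13 and Tmem119 were also lower in every IS rat, and Olfml3 overlapped. Among all genes tested 18.7% had all IS rats below and 19.2% all above. None of the 9 genes passed edgeR's quasi-likelihood test at an adjusted p of 0.05, as 0% of all genes did. At an unadjusted p under 0.05, 4 of the 9 were lower (P2ry12, P2ry13, Tmem119 and Sall1; 11.7% of all genes) and none was higher (10.5%).

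The values of these 4 genes were close to one another. The log2 fold change of P2ry13 in IS against IC was -0.83 (standard error 0.28, adjusted p = 0.162), that of Tmem119 was -0.74 (standard error 0.25, adjusted p = 0.165), that of Sall1 was -0.73 (standard error 0.18, adjusted p = 0.147) and that of P2ry12 was -0.67 (standard error 0.25, adjusted p = 0.180). Gpr34 followed at -0.51 (standard error 0.24, adjusted p = 0.239). In mean TPM, Sall1 was at 37.0 ± 6.27 (SD, n = 3) in IC and 21.3 ± 4.99 (SD, n = 3) in IS, and Gpr34 at 55.2 ± 11.1 (SD, n = 3) and 37.2 ± 5.58 (SD, n = 3).

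For the growth factor and chemokine receptors the values were nearer to 0, and no test compared them with the genes above. Csf1r differed by 0.10 on the log2 scale (standard error 0.15, adjusted p = 0.689) and Cx3cr1 by 0.11 (standard error 0.18, adjusted p = 0.720), both less than their standard errors. Olfml3 was at 0.39 (standard error 0.23, adjusted p = 0.316) and Aif1 at 0.77 (standard error 0.37, adjusted p = 0.245). The 9 genes thus spread from -0.83 to 0.77, with a median of -0.51 beside 0.00 over all genes.

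Sall1 was the gene whose call depended on the setting. Its adjusted p was 0.0117 by the Wald test of DESeq2 (log2 fold change -0.72, with 3.21% of all genes lower in IS) and 0.0248 by edgeR's quasi-likelihood test when IS-HA replicate 2, which is in neither group, was left out of the shared fit (-0.73, with 7.71% of all genes lower). No other gene of the 9 was called in any of the 20 alternatives, whose adjusted p ranged from 0.0523 to 0.518 for P2ry13 and from 0.0117 to 0.516 for Sall1. Olfml3 and Aif1, the 2 genes higher in every IS rat, are short (21.3rd and 27.5th percentile of length), and with the length trend removed in each rat they stood at 0.25 and 0.67, while Sall1 stood at -0.49.

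**Figure D3:**
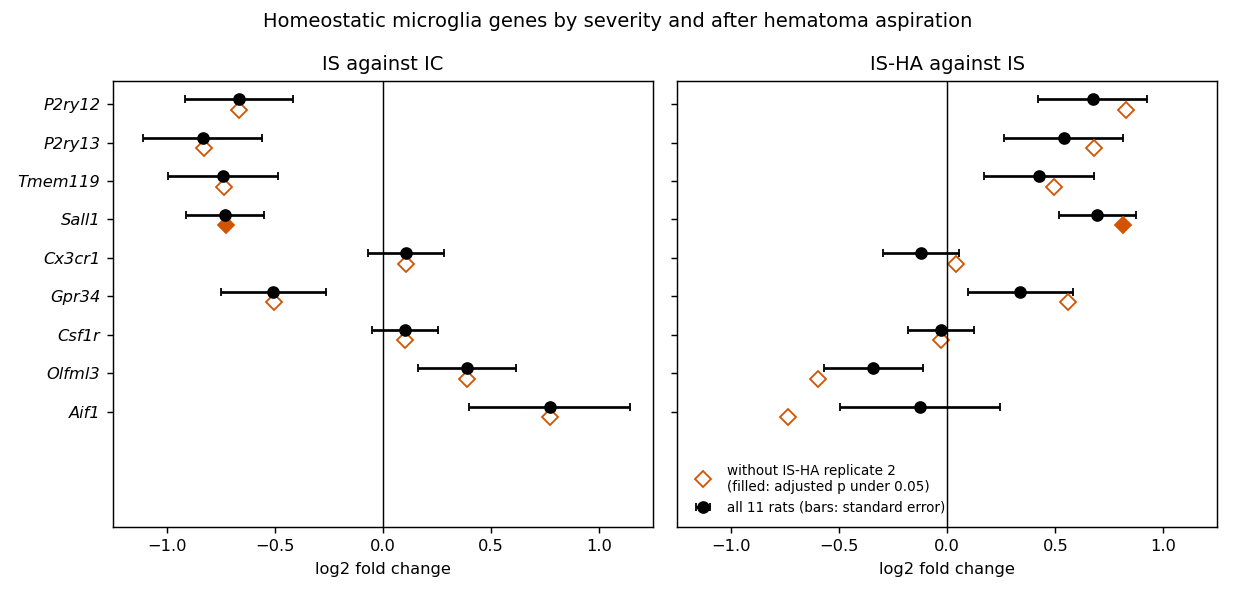
Log2 fold change (horizontal axes) of each gene in IS against IC and in IS-HA against IS, with all 11 rats (black, bars are standard errors) and without IS-HA replicate 2 (orange diamonds, filled where the adjusted p was under 0.05). P2ry12, P2ry13, Tmem119, Sall1 and Gpr34 lie left of 0 in the first panel and right of 0 in the second, and only Sall1 has filled diamonds, at -0.73 and 0.81.

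Aspiration was examined as IS-HA against IS. P2ry12, Tmem119 and Sall1 were above every IS rat in all IS-HA rats in TMM-scaled CPM, a separation that 4.96% of all genes showed, and no member was below every IS rat (5.42%). In TPM, IS-HA replicate 2 lay within the range of IS for all 3 genes (39.3 for P2ry12, 20.8 for Tmem119 and 24.1 for Sall1). None of the 9 genes passed edgeR's quasi-likelihood test (0.00635% of all genes) or the Wald test of DESeq2 (0.318% of all genes higher and 0.133% lower), and 2 were higher at an unadjusted p under 0.05 (P2ry12 and Sall1; 5.58%). IS-HA and IC are each compared with the same IS rats, so the signs of these values and of those against IC are not independent.

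The log2 fold change of Sall1 in IS-HA against IS was 0.69 (standard error 0.18, adjusted p = 0.499), that of P2ry12 0.67 (standard error 0.25, adjusted p = 0.540), that of P2ry13 0.54 (standard error 0.28, adjusted p = 0.565), that of Tmem119 0.42 (standard error 0.25, adjusted p = 0.601) and that of Gpr34 0.34 (standard error 0.24, adjusted p = 0.658). Csf1r and Cx3cr1 stood at -0.03 and -0.12, with standard errors of 0.15 and 0.18. For Olfml3 the value was -0.34 (standard error 0.23), and for Aif1 it was -0.12 (standard error 0.37).

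IS-HA replicate 2 was in TPM the lowest IS-HA rat for every gene of the 9 but Olfml3 and Aif1, for which it was the highest. Without it Sall1 was called higher in IS-HA than in IS (0.81, adjusted p = 0.0381, edgeR's quasi-likelihood test, with 3.4% of all genes higher), P2ry12 stood at 0.83 (adjusted p = 0.0689), Gpr34 at 0.56 (adjusted p = 0.0932), Olfml3 at -0.60 (adjusted p = 0.0744) and Aif1 at -0.74 (adjusted p = 0.0997), and Cx3cr1 turned to 0.042. Sall1 was called in 1 of 20 alternatives and the other 8 genes in none.

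IS-HA against IC gave no call and no unadjusted p under 0.05 for any of the 9 genes, where 4.97% of all genes had such a p by edgeR's quasi-likelihood test and 0% were called. The Wald test of DESeq2 likewise called none of them (0.0635% of all genes higher and 0.0699% lower). The median log2 fold change of the 9 genes was -0.02, and no gene had all IS-HA rats on one side of all IC rats (4.66% of all genes above and 4.36% below). With 3 rats in each group this does not show that the levels were the same.

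Genes shared by all myeloid cells had a median log2 fold change of 3.57 over the mean of the hemorrhage groups, beside 1.15 for the homeostatic genes. All 8 pan-myeloid genes (Itgam, Ptprc, Tyrobp, Fcer1g, Laptm5, Cd53, Ctss and Spi1) rose in every hemorrhage group. Of all genes tested, 13%, 24.8% and 19.5% rose in IC, IS and IS-HA. The summed level of the 8 genes was 204 to 281 TPM in Normal, 1148 to 1662 TPM in IC, 1957 to 3470 TPM in IS and 1484 to 2464 TPM in IS-HA. Of the monocyte and infiltrating macrophage list, 9 of 10 genes rose over the mean of the hemorrhage groups (22.9% of all genes), from a sum of 40.0 to 40.9 TPM in Normal to 1043 to 2047 TPM in IC, 3098 to 5069 TPM in IS and 1389 to 2192 TPM in IS-HA, led by Hmox1, the heme-degrading enzyme, at a log2 fold change of 7.65. All 8 border macrophage genes rose, led by the chemokine gene Pf4 at 6.68. So did the 5 neutrophil genes that could be tested of 8, led by S100a8 at 7.39, while Mpo had 0 counts in all Normal, IC and IS rats. The summed level of the 8 neutrophil genes in Normal was only 5.03 to 5.16 TPM. Genes this low in Normal can pass the count filter through the hemorrhage rats alone, so the number that rose was partly set by the filter. The same limit holds for genes low in Normal in the border macrophage and monocyte lists. The part of monocytes, macrophages and neutrophils in the levels of Csf1r, Cx3cr1 and Aif1 was not tested.

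Set against the mean log2(TPM + 0.5) of the 8 pan-myeloid genes in the same rat, 8 of the 9 genes were lower in all 9 hemorrhage rats than in both Normal rats. This held for 95.7% of all genes tested and is therefore no particular trait of the 8. The difference between hemorrhage and Normal on that log2 scale was -3.22 for Tmem119, -2.86 for P2ry13, -2.76 for Sall1, -2.34 for P2ry12, -2.15 for Olfml3, -1.68 for Gpr34, -1.64 for Cx3cr1 and -1.14 for Csf1r. The pan-myeloid genes rose by a median of 3.57 over the mean of the hemorrhage groups, beside 0.02 over all genes tested. A gene whose own level did not move is therefore lower on this scale, as Tmem119 is (log2 fold change 0.009). The two-sided exact permutation p was 0.0364 for each of the 8, the smallest that 9 against 2 rats allow. Every gene among the 95.7% reaches the same p, so it does not set the 8 apart. Aif1 differed from the pan-myeloid genes by 0.21 (exact permutation p = 0.182), and its sign turned to -0.23 against C1qa, C1qb and C1qc. In raw ratios, there were 1.55 and 1.60 TPM of P2ry12 per TPM of Aif1 in Normal, 0.565, 0.275 and 0.427 in IC, 0.217, 0.192 and 0.0917 in IS, and 0.464, 0.120 and 0.440 in IS-HA. Aif1 itself rose by 3.52 over the mean of the hemorrhage groups, and P2ry12 by 0.91. Relative to the pan-myeloid genes, 6 of the 9 genes had all IS rats below all IC rats (47.5% of all genes). On that scale P2ry12 and Sall1 had all IS-HA rats above all IS rats (14.5%).

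**Figure D4:**
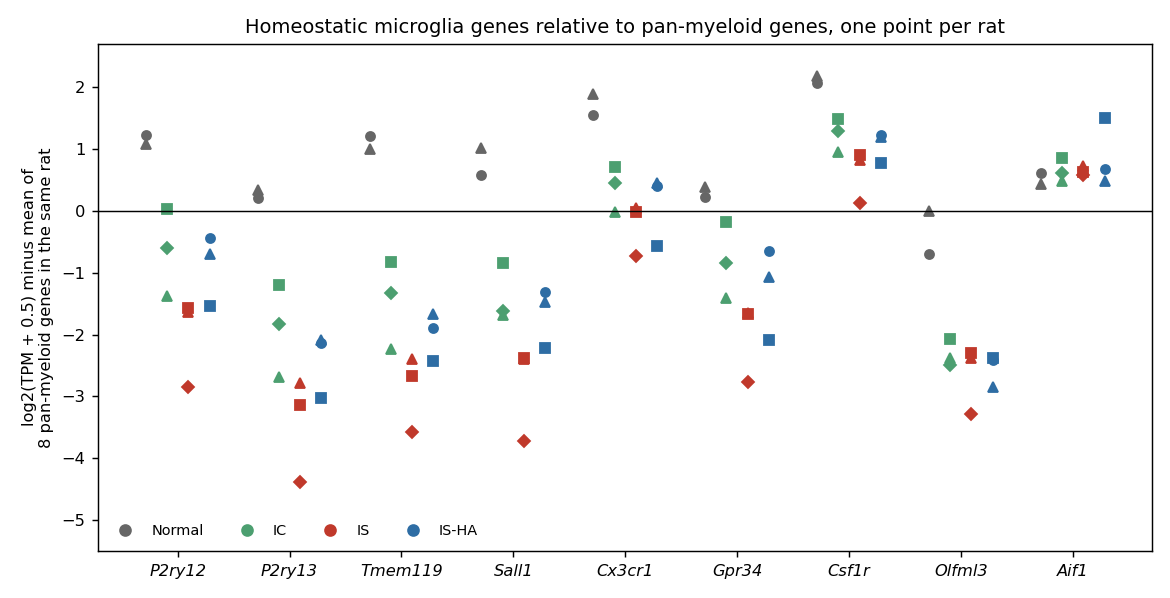
Log2(TPM + 0.5) of each gene minus the mean of the 8 pan-myeloid genes in the same rat (vertical axis), 1 point per rat, colored by group, with the replicate number as the shape (circle 1, square 2, triangle 3, diamond 4). All genes but Aif1 lie lower in the 9 hemorrhage rats than in both Normal rats, as 95.7% of all genes did.

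Other genes of the resting program were examined as well. Of 13 other homeostatic genes tested, 8 rose over the mean of the hemorrhage groups (22.9% of all genes) and none fell (21.7% of all genes), with a median log2 fold change of 1.11. Among them Hpgds, a prostaglandin D synthase, was at 2.57 (adjusted p = 0.000465, edgeR's quasi-likelihood test). Crybb1, a crystallin gene, was at -0.91 (adjusted p = 0.169, same test), and the difference between them was not tested. Siglech, a sialic acid-binding lectin, is 1 of the 8 counted as risen. It had 0 counts in both Normal rats and 1 to 18 counts in the hemorrhage rats, which is too few for a fold. None of the 13 was called in IS against IC or in IS-HA against IS.

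The transcription factors of microglia moved in both directions. Spi1, which encodes PU.1, rose by 4.02, Runx1 by 4.23 and Irf8 by 2.71 on the log2 scale, while Mef2c fell by 1.40 (adjusted p = 0.0456, edgeR's quasi-likelihood test), Smad3 by 1.34 and Mef2a by 1.31. Mef2c and Mef2a are also expressed by neurons. In all, 4 of 8 rose and 3 fell, against 22.9% and 21.7% of all genes, beside Sall1, whose mean rise was 0.50.

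Csf1 and Il34 encode the ligands of Csf1r. Csf1 rose (1.42, adjusted p = 0.00175), and Il34, made by neurons, stood at -0.29 (adjusted p = 0.361), and the difference between them was not tested. Cx3cl1, which encodes fractalkine, the ligand of Cx3cr1, fell by 1.27 (adjusted p = 0.00430), and Tgfb1, which encodes TGF-beta, rose by 3.11 (adjusted p = 6.7e-05), all by edgeR's quasi-likelihood test. Its receptor genes Tgfbr1 and Tgfbr2 rose by 2.20 and 1.93. Of the 9 ligands, receptors and enzymes in the list, 6 rose (22.9% of all genes) and 1 fell (21.7%).

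Of 9 other purinergic receptors and ectonucleotidases, 5 rose (22.9% of all genes) and none fell (21.7%). P2ry6, the UDP receptor linked to phagocytosis, rose by 3.29 (adjusted p = 9.1e-05, edgeR's quasi-likelihood test), and P2rx4, an ATP-gated channel, by 2.59 (adjusted p = 0.00238). Entpd1, which encodes the ectonucleotidase CD39, rose by 0.45 (adjusted p = 0.0203), and P2ry1, another ADP receptor, stood at -0.60 (adjusted p = 0.0537). P2ry12, at 0.91, thus rose less than P2ry6 in value, and the difference between them was not tested.

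The genes whose levels followed each member most closely across the 11 rats, by Pearson's r of log2 CPM, are given as a description, since the rats share groups and differ in depth. For P2ry12 they were Fam169b (r = 0.929), Gal3st4 (0.922) and Gpr34 (0.900). For P2ry13 they were Slc38a3 (0.911), Sod3 (0.894) and Tmem119 (0.887), and for Tmem119 they were Sod3 (0.900), Nccrp1 (0.892) and Cyp2j3 (0.889). Sall1 was closest to Kcnj5 (0.916), Sox4 (0.908) and Neu3 (0.906). For Gpr34 the closest were Slco2b1 (0.977), Fam169b (0.943) and Pou2f2 (0.942).

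Among the remaining members, Cx3cr1 was closest to Tfec (0.987), Rubcnl (0.982) and Gcnt1 (0.981), and Csf1r to Rubcnl (0.995), Il16 (0.992) and Tent5c (0.990). Aif1 was closest to Blnk (0.997), Tyrobp (0.996) and Trem2 (0.996), and Olfml3 to Fancl (0.974), S100a6 (0.972) and Hmgn2 (0.971). Within the 9 hemorrhage rats alone, r of the closest gene was 0.934 for P2ry12, 0.896 for P2ry13, 0.909 for Tmem119, 0.953 for Sall1, 0.791 for Cx3cr1, 0.886 for Gpr34, 0.665 for Csf1r, 0.955 for Olfml3 and 0.977 for Aif1. For Gpr34 and its second gene, Fam169b, it was 0.743. Of the 27 pairs, 15 were again among the 3 closest when IS-HA replicate 2 was left out, and 19 when TPM replaced TMM-scaled CPM. Those not found again without that rat were Gpr34 for P2ry12, Sod3 and Tmem119 for P2ry13, Neu3 for Sall1, Gcnt1 for Cx3cr1, Pou2f2 for Gpr34, Il16 and Tent5c for Csf1r, S100a6 and Hmgn2 for Olfml3 and Blnk and Trem2 for Aif1.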

How the data were processed

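The authors extracted RNA from the ipsilateral striatum of 11 rats, made stranded poly(A) libraries and sequenced paired-end reads. The submitters' processing notes name fastp 0.20.0, HISAT2 2.1.0, SAMtools 1.9, featureCounts, DESeq2 and the build mRatBN7.2. The annotation version and the strand setting are not given in the sources used here. The authors deposited unnormalized read counts per Ensembl gene, and the deposited TPM are those counts divided by gene length and scaled to the same sum per rat. Groups and replicate numbers followed the labels, and 0 columns were left unmatched.

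Counts were filtered with filterByExpr, normalized by TMM and tested with the quasi-likelihood F test of edgeR 4.0.16 (R 4.3.3). All 4 groups entered the same model, and p-values were adjusted by the Benjamini-Hochberg method over 15742 genes. A gene was called at an adjusted p under 0.05. Standard errors were taken from the F statistic (size of the log2 value over the root of F). The Wald test of DESeq2 1.42.0, the tool the study names, was an alternative. P-values measure the spread between rats. Levels relative to other genes used log2(TPM + 0.5) and exact permutation over rats (Python 3.11.15), and figures were drawn with matplotlib 3.10.9.

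The 9 genes and all other lists were chosen with earlier results of these data known. Named beside them were, in each list, the genes with the largest rise and fall, the receptor ligands, and the 3 genes most correlated with each member. Further list members (Hpgds, Crybb1, Spi1, Irf8, Smad3, Mef2a, Tgfbr1, Tgfbr2, P2rx4, Entpd1 and P2ry1) were named after their values were seen. Some list members are not reported by name here. The tests were checked on simulated data. Promoter windows came from RefSeq for GRCr8, whose coordinates are not those of the counting build. Protein and cell culture measurements were not analysed here.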

Additional observations from a re-analysis of the deposited data

How the results depend on the processing

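Other scalings, another test, other count filters, the removal of a gene length trend (chosen after seeing the data) and the omission of each rat were tried. The number of genes called in IS against Normal was 5 when each rat was left out in turn, and 0 in IS-HA against IC. When each rat was left out, the count ranged from 4 to 7 in IC against Normal and in IS-HA against Normal, from 0 to 1 in IS against IC and in IS-HA against IS, and from 0 to 8 for the genes lower relative to pan-myeloid genes, since 1 Normal rat cannot give an exact p under 0.05. With all rats, 95.7% of all genes were lower in the 9 hemorrhage rats than in both Normal rats on that relative scale. The Wald test of DESeq2 called 1 gene in IS against IC, and 975 of all 15742 genes. A fit of only the groups compared called 4 in IS-HA against Normal, and 2422 of all 15727 genes, beside 4965 in the main fit. Calls over all genes also moved when a hemorrhage rat was left out. In IC against Normal they ranged from 1434 without IC replicate 3 to 5291 without IS-HA replicate 2. In IS against Normal they ranged from 5988 without IS replicate 4 to 9453 without IS-HA replicate 2. For IS-HA against Normal the range was 4215 without IC replicate 4 to 5259 without IS-HA replicate 1. Without IS-HA replicate 2, 2241 genes were called in IS against IC and 695 in IS-HA against IS. Library size alone moved the median log2 fold change of all genes from 0.00 to 0.14 in IC against Normal.

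The replicate numbers belong to different rats and do not pair them: same-numbered IS and IC rats had correlations of deviations from -0.435 to 0.445. With the number as a block, 4 genes were called in IC against Normal, 6 in IS-HA against Normal and 5 in IS against Normal. Over all 15742 genes the block gave 839, 2416 and 2787 calls in these comparisons, beside 2770, 4965 and 7710 without it.

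In these alternatives, signs turned only for values that were not called. P2ry13 in IS against Normal was 0.10 with library size alone, 0.14 with the replicate block and -0.24 to 0.15 with each rat left out. Leaving out rats gave -0.68 to 0.0016 for Tmem119 and -0.049 to 0.17 for Sall1 in IS against Normal, and -0.26 to 0.42 for Tmem119 in IS-HA against Normal, where removing the length trend gave -0.067. Over the mean of the hemorrhage groups, Tmem119 was -0.016 with the size factors and with the Wald test of DESeq2, -0.084 without the length trend and -0.30 to 0.39 with each rat left out. In IS-HA against IS, leaving out rats gave -0.27 to 0.042 for Cx3cr1, -0.10 to 0.01 for Csf1r and -0.74 to 0.18 for Aif1, which was 0.013 with the block. Aif1 relative to the C1q genes was -0.23. The causes were not tested. Depth limits genes near the floor of 3 counts, and the lowest count of any of the 9 genes in a rat was 89.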

Other observations

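Marker genes of other cell types and states were examined in the same libraries. Over the mean of the hemorrhage groups, 9 of 10 neuronal genes fell (21.7% of all genes fell), with Syt1, a synaptic vesicle protein gene, lowest at a log2 fold change of -2.15, and their summed level was 7627 to 7700 TPM in Normal, 3069 to 6107 TPM in IC, 1532 to 3955 TPM in IS and 2258 to 4000 TPM in IS-HA. All 6 oligodendrocyte genes fell, Opalin most, at -1.58. Of 6 astrocyte genes, Gfap, the filament protein of reactive astrocytes, rose by 3.23 and Slc1a2, a glutamate transporter gene, fell by 2.60. Of 6 endothelial genes only Flt1, a VEGF receptor gene, passed edgeR's quasi-likelihood test, at -0.42 (adjusted p = 0.0318).

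Against 22.9% of all genes, all 6 proliferation genes rose, Cdk1 by 4.40. Their summed level in Normal was 11.9 to 18.1 TPM. Genes low in Normal can pass the count filter through the hemorrhage rats alone. Of the activated phagocyte list, 11 of 12 genes rose, led by Spp1, which encodes osteopontin, at 11.24. The 3 C1q genes rose, C1qb by 3.96. None of the 3 hemoglobin and erythroid genes found passed the test, and their summed level was 54.2 to 57.7 TPM in Normal and 15.6 to 164 TPM after hemorrhage. In IS against IC and in IS-HA against IS, 0 genes of all these lists were called by edgeR's quasi-likelihood test.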
